A study of Homo sapiens with 36 samples.

Results

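The genes described here are 10 endothelial and blood genes, KDR, PECAM1, CDH5, TEK, TIE1, VWF, ETV2, TAL1, LMO2 and ERG, taken by symbol from the 58721 genes of the deposited count matrix. All 10 were found, and all 10 are among the 19772 genes that passed the filter on low counts and were tested. The counts come from H1, a human embryonic stem cell line, labelled PERK KO or wild type and differentiated toward cardiomyocytes, with 3 libraries of each genotype at days 0, 1, 2, 3, 5 and 10 (36 libraries, 12 groups). These days are the sample labels' own, whereas the design text of the series names collection at days 0, 2 and 6, a difference that the sources used here do not settle. PERK, encoded by EIF2AK3, is a kinase of the endoplasmic reticulum membrane that lowers protein synthesis when unfolded proteins build up. Cells of both genotypes received the WNT activator CHIR99021 from day 0 to day 1, heparin from day 1 to day 7, the WNT inhibitor IWP2 from day 2 to day 5 and insulin from day 7 onward, and no endothelial growth factor is named in the records. The records do not describe how PERK was targeted, how many clones were used or whether the replicates were separate cultures, so the p-values measure only the spread between these libraries.

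Endothelial cells line blood vessels, and in the embryo they arise from mesoderm close to blood progenitors. The ETS factor ETV2 switches on the programme for a short time, together with TAL1 and its partner LMO2, and ERG is another ETS factor that maintains endothelial identity. KDR, also called VEGFR2, is the main receptor for the growth factor VEGF-A and marks early mesoderm as well as endothelium. TEK, the angiopoietin receptor also called TIE2, and its relative TIE1 are receptor tyrosine kinases of vessels. CDH5 (VE-cadherin) and PECAM1 (CD31) hold endothelial cells together at their junctions, and VWF is the clotting protein that endothelium stores and secretes. Several of these genes are also read outside the lineage, KDR in early mesoderm and TAL1 in parts of the nervous system, so 1 gene alone does not name a cell type.

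The members did not move as a block. In PERK KO, KDR fell after day 2, no step of ETV2 was called, LMO2 was lower than in wild type at days 1 and 2, and VWF and ERG were lower at day 2. TEK and TAL1 instead exceeded their wild-type levels at days 2, 3 and 5. In wild type, KDR was high throughout, ETV2, VWF and ERG rose at day 2, and CDH5, PECAM1, TIE1, TEK, TAL1 and LMO2 were highest at day 10. At day 10, 9 of the 10 members were lower in PERK KO and VWF was higher; the calls of PECAM1 and ERG among them were lost with an offset for transcript length. Because each library is bulk RNA, fewer cells of a type and less RNA per cell cannot be told apart.

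**Figure D1:**
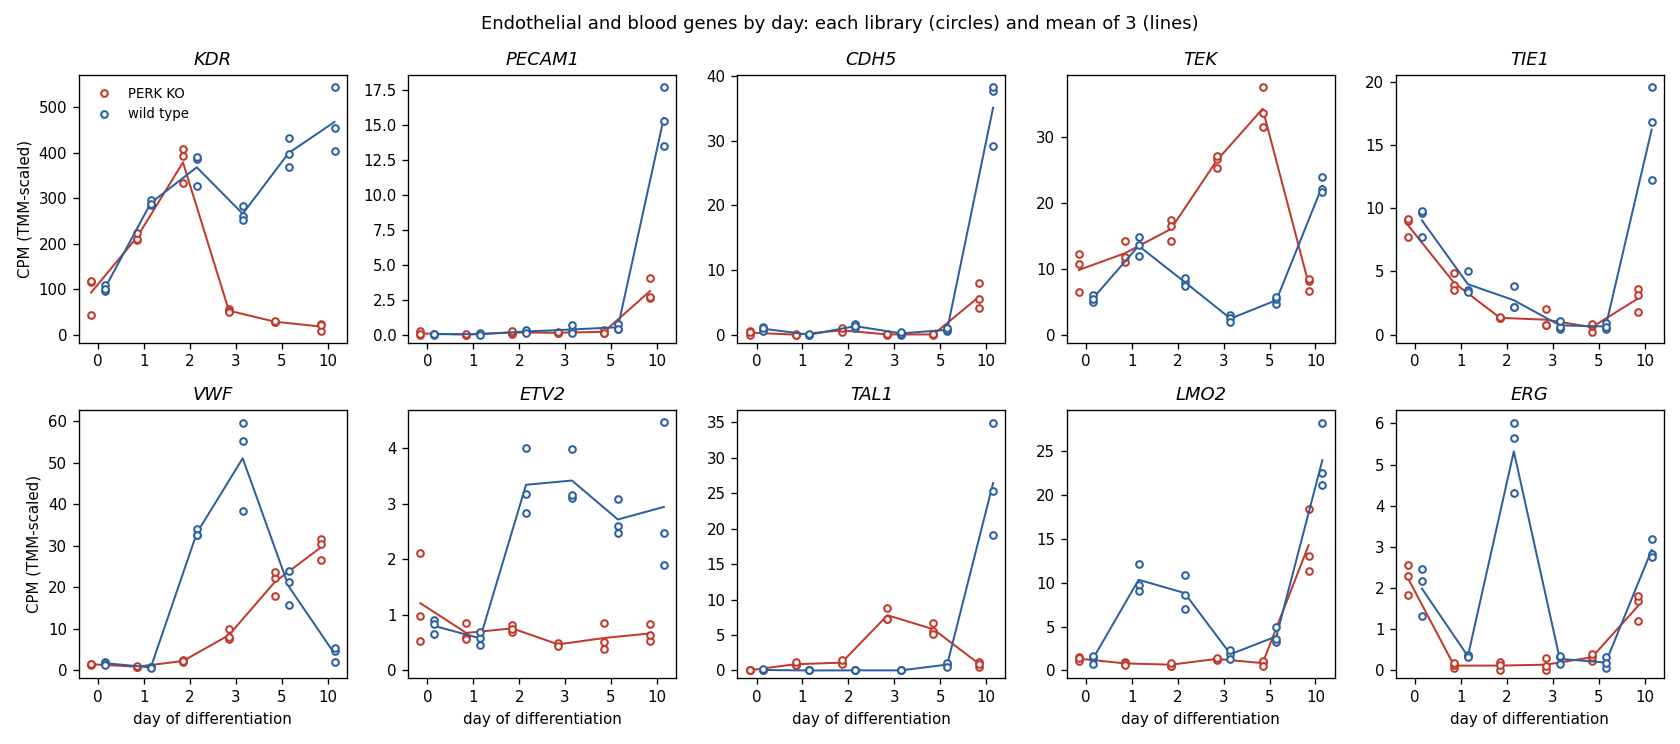
Level of each member in CPM (counts scaled to library size, with TMM factors) by day of differentiation, with PERK KO in red and wild type in blue; circles are single libraries and lines join the means of 3. KDR in PERK KO fell to a mean of 53 CPM at day 3, against 266 CPM in wild type, and CDH5 reached 5.91 CPM at day 10 in PERK KO, against 35.1 CPM in wild type.

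Libraries held 14002137 to 25860481 counted reads. EIF2AK3, the targeted gene, had 130 to 626 counts in every library and was not called different at any day, with a level of 16.9 ± 4.35 CPM in PERK KO and 21.9 ± 3.31 CPM in wild type at day 0 (SD, n = 3 each), so its level does not check the labels. Replicate 2 of PERK KO at day 0 differed from its group, with a chi-square per degree of freedom of 163 and 151 against the other libraries and 4.39 between those, and its mean transcript length was 1169 nt, against 1493 and 1464 nt in those. Wild-type day 2 replicate 3 also stood apart (81.8 and 76.6, against 4.29). Genotype differences of members that change call or sign without these libraries are given both ways. Wild-type libraries of day 3 (26.55, 95.64 and 34.49 over the pairs), day 5 (15.88, 21.06 and 11.43) and day 10 (26.78, 58.85 and 33.63) also agreed poorly, with no close pair among them. Wild-type day 0 replicate 1 lay further from the other libraries of its group (19.28 and 25.78, against 3.775 between those). The libraries of these groups were left out only 1 at a time. In all that follows, a gene is called when its Benjamini-Hochberg adjusted p in edgeR's quasi-likelihood test over all genes tested is under 0.05, and a log2 fold change runs from PERK KO over wild type, or from the later day over the earlier one.

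The RefSeq start sites at hand covered 6 of the 10 members (KDR, TEK, TIE1, ETV2, TAL1 and ERG, 11 promoter windows in all). PECAM1, CDH5, VWF and LMO2 had no entry among them, which says nothing about RefSeq as a whole. Of the windows, 4 are shown because the genes behind them split in direction at days 3 and 5. KDR and ETV2 were lower in PERK KO at days 3, 5 and 10. TEK and TAL1 were higher at days 3 and 5 but also lower at day 10. Each window runs from 250 bases before to 50 after a start site (RefSeq, GRCh38.p14), 5′ to 3′ on the gene's strand. Capitals mark, on either strand, the letters CAGGAA for ETS factors, AGATAA for factors of the GATA family, CAGNTG for the E-box, TGTTTAC for forkhead factors, ACAAT for SOX factors and GGGCGG for the GC box. The windows are chr4:55125546-55125845 (minus strand) for KDR, chr19:35641495-35641794 (plus) for ETV2, chr9:27108975-27109274 (plus) for TEK and chr1:47232286-47232585 (minus) for TAL1.
KDR: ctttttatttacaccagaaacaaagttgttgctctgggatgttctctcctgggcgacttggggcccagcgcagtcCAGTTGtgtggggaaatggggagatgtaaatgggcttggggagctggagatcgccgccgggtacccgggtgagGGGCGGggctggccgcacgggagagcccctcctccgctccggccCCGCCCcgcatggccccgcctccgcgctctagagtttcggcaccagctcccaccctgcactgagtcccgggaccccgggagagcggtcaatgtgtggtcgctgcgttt
ETV2: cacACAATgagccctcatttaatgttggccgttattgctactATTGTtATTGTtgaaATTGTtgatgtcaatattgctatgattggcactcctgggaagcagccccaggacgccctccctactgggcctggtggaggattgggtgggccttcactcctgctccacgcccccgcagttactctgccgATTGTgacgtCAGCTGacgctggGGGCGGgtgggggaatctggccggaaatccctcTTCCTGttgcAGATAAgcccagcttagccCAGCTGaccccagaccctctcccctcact
TEK: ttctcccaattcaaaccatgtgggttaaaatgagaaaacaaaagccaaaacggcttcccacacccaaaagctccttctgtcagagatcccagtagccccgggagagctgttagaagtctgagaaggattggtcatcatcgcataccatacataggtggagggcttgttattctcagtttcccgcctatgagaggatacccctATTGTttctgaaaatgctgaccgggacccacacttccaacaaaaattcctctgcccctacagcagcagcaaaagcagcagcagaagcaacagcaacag
TAL1: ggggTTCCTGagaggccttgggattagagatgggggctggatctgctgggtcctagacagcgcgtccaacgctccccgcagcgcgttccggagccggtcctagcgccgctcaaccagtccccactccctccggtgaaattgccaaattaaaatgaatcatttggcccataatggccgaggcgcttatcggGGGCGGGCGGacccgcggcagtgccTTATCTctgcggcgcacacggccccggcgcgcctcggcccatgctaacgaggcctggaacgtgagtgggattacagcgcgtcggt

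In the KDR window 1 E-box and 2 GC box matches were found. The ETV2 window held the most kinds of match of the 4 shown, with 1 ETS, 1 GATA, 2 E-box, 5 SOX and 1 GC box match. The TEK window held 1 SOX match, and a second listed TEK window (chr9:27109200-27109499, not shown) held 1 ETS, 1 GATA and 1 forkhead match. In the TAL1 window there were 1 ETS, 1 GATA and 2 overlapping GC box matches. A second listed TAL1 window (chr1:47231666-47231965, not shown) held 0 ETS, 0 GATA, 2 SOX and 1 GC box matches. Over the 11 windows of the 6 members, some of which overlap, ETS letters were in 5, GATA letters in 5, E-box letters in 7, forkhead letters in 1, SOX letters in 5 and GC box letters in 5. Of all 35116 listed promoters, 28.4% held the ETS letters, 10.3% the GATA letters, 49.9% the E-box letters, 3.42% the forkhead letters, 27.4% the SOX letters and 45.0% the GC box letters. Such short letters turn up often, and a match describes the sequence and not a bound factor.

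The genotype comparison asks how each gene's level in PERK KO stood against wild type on the same day. At day 0, TEK alone of 10 members was called, as higher (21.1% of all genes tested were called, 12.5% higher and 8.64% lower). By day 1, 1 was higher and 1 lower (15.8% of all genes called, 8.11% higher and 7.72% lower). Day 2 had 2 higher and 5 lower (42.6%, with 20.9% higher and 21.7% lower), and day 3 had 2 higher and 3 lower (45.1%, with 21.9% higher and 23.2% lower). Day 5 had 2 higher and 4 lower (59.0%, with 28.6% higher and 30.5% lower). Day 10 had 1 higher and 9 lower (67.3%, with 33.3% higher and 34.0% lower). The number called therefore lay near or below the share of all genes on days 0, 1, 3 and 5, and above it at day 2 and at day 10, where the members were also mostly lower while all genes split evenly. The groups did not overlap for 2, 4, 7, 5, 7 and 10 members at days 0, 1, 2, 3, 5 and 10, and for 30.0%, 48.2%, 56.5%, 53.1%, 72.7% and 72.3% of all genes tested. At days 2, 3, 5 and 10 the median log2 fold change of the 10 was -0.98, -1.15, -0.68 and -2.22, with that of all genes tested between -0.03 and 0 on those days. Without the 2 libraries that stood apart, 1, 2, 6, 5, 7 and 10 members were called at days 0, 1, 2, 3, 5 and 10.

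**Figure D2:**
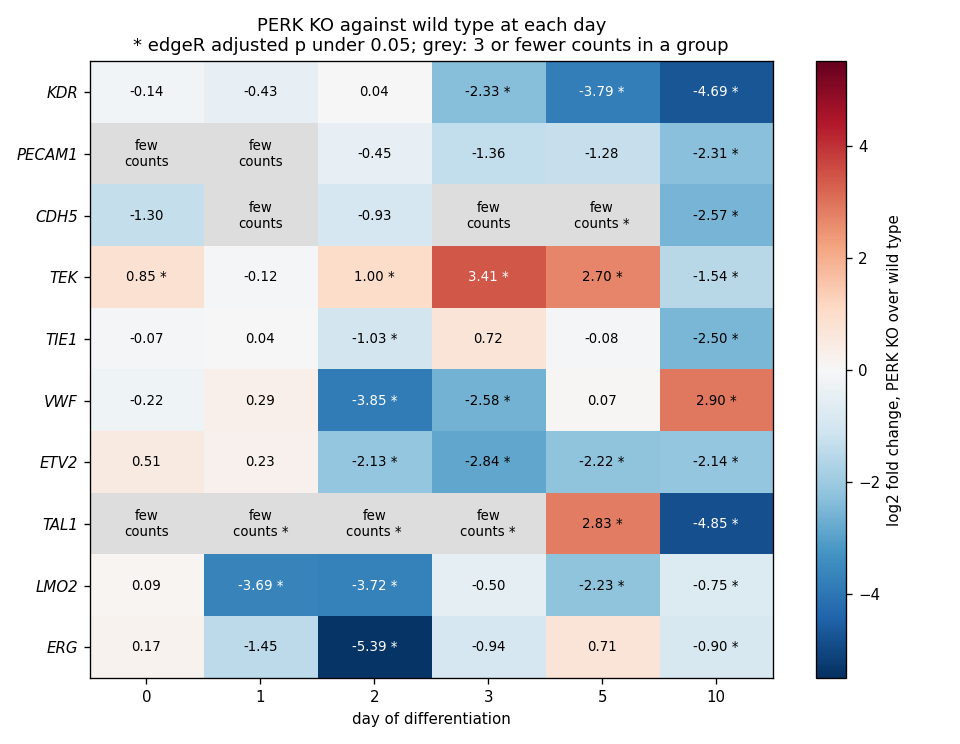
Log2 fold change of PERK KO over wild type for each member (rows) and day (columns); red is higher and blue lower in PERK KO, stars mark an edgeR adjusted p under 0.05, and grey cells have 3 or fewer counts in a group, so that no fold is drawn. KDR was at -4.69 at day 10, TEK at 2.70 at day 5 and -1.54 at day 10, and VWF at -3.85 at day 2 and 2.90 at day 10.

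The receptors KDR, TEK and TIE1 each took a different course. KDR (ENSG00000128052.9, GRCh38 chromosome 4, 55078259 to 55125595, minus strand) had the most reads of all members in wild type at every day and was already present in undifferentiated cells. At day 0 it had 116, 43.5 and 119 CPM in PERK KO libraries, against 97.3, 109 and 101 CPM in wild type. The groups overlapped, the low value is the library that stood apart, and the log2 fold change was -0.14 with all libraries and 0.20 without that one, not called either way. At day 1 PERK KO libraries had 209, 211 and 224 CPM, against 296, 286 and 288 CPM in wild type. These groups did not overlap, and the log2 fold change of -0.43 ± 0.24 (SE; edgeR adjusted p = 0.243) was not called with all libraries but was with only the 6 compared (-0.42, adjusted p = 5.55e-05). At day 2 the genotypes overlapped, with 335, 394 and 409 CPM in PERK KO and 387, 391 and 326 CPM in wild type (log2 fold change 0.04 ± 0.24 SE, edgeR adjusted p = 0.909).

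From day 3 on KDR was called lower in PERK KO. PERK KO libraries had 56.7, 53 and 49.4 CPM at day 3, against 262, 253 and 284 CPM in wild type, a log2 fold change of -2.33 ± 0.25 (SE; edgeR adjusted p = 2.9e-09). Every PERK KO library lay below every wild-type library at this day and at both later days. At day 5 the values were 27.6, 28.4 and 30.3 CPM in PERK KO and 369, 432 and 398 CPM in wild type, -3.79 ± 0.27 (SE; edgeR adjusted p = 1.96e-13) on the log2 scale. By day 10 PERK KO libraries held 23.6, 9.33 and 21.4 CPM, against 545, 404 and 455 CPM in wild type, -4.69 ± 0.28 (SE; edgeR adjusted p = 4.05e-15). PERK KO replicate 2 was the lowest of its group at day 10, and wild-type replicate 1 the highest.

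Over time KDR rose in both genotypes and then diverged. From day 0 to day 1 the log2 fold change was 1.21 ± 0.24 (SE; edgeR adjusted p = 0.000179) in PERK KO and 1.5 ± 0.24 (SE; edgeR adjusted p = 7.9e-06) in wild type. Between days 2 and 3 KDR fell in PERK KO, with a log2 fold change of -2.84 ± 0.25 (SE; edgeR adjusted p = 5.74e-10), while the wild-type change of -0.47 ± 0.24 (SE; edgeR adjusted p = 0.136) was not called. A further step down from day 5 to day 10 in PERK KO (-0.67 ± 0.25 SE, edgeR adjusted p = 0.0269) lost its call when PERK KO day 10 replicate 2 was left out (-0.35, adjusted p = 0.227), without PERK KO day 5 replicate 2 (-0.68, 0.0519) and without PERK KO day 5 replicate 3 (-0.63, 0.0706). The step up from day 1 to day 2 in PERK KO (0.82 ± 0.24 SE, edgeR adjusted p = 0.0181) had adjusted p values of 0.0584 to 0.0709 when PERK KO day 1 replicate 1 or 2 or PERK KO day 2 replicate 2 or 3 was left out.

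TEK (ENSG00000120156.20, GRCh38 chromosome 9, 27109141 to 27230175, plus strand), the angiopoietin receptor, did not follow KDR. At day 0 its level was 12.3, 6.43 and 10.7 CPM in PERK KO libraries, against 5.0, 5.96 and 5.47 CPM in wild type, 0.85 ± 0.18 (SE; edgeR adjusted p = 0.000808) on the log2 scale. No PERK KO library lay below a wild-type one, and the call was lost when only these 6 libraries were fitted (0.85, adjusted p = 0.132). Day 1 showed 14.2, 11 and 11.8 CPM in PERK KO and 12, 14.8 and 13.6 CPM in wild type, with overlapping groups and no call.

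TEK was then higher in PERK KO for 3 sampled days. Day 2 libraries had 17.4, 14.2 and 16.4 CPM in PERK KO and 8.03, 8.57 and 7.43 CPM in wild type, 1.0 ± 0.17 (SE; edgeR adjusted p = 1.59e-05). Day 3 libraries had 26.7, 27.1 and 25.3 CPM in PERK KO, against 2.97, 2.49 and 1.91 CPM in wild type, 3.41 ± 0.19 (SE; edgeR adjusted p = 8.26e-16). This was the largest difference of TEK: from day 2 to day 3 it rose in PERK KO (0.72 ± 0.16 SE, edgeR adjusted p = 0.00139) and fell in wild type (-1.69 ± 0.19 SE, edgeR adjusted p = 1.07e-08). At day 5 the levels were 33.6, 31.6 and 37.6 CPM in PERK KO and 4.62, 5.36 and 5.75 CPM in wild type, 2.7 ± 0.18 (SE; edgeR adjusted p = 3.97e-14).

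Between days 5 and 10 TEK fell in PERK KO and rose further in wild type, where it had already risen from day 3 to day 5 (1.09 ± 0.19 SE, edgeR adjusted p = 5.93e-05). Its day 10 over day 5 log2 fold change was -2.14 ± 0.17 (SE; edgeR adjusted p = 1.1e-11) in PERK KO and 2.1 ± 0.18 (SE; edgeR adjusted p = 2.24e-11) in wild type. Day 10 libraries had 8.18, 6.68 and 8.41 CPM in PERK KO, against 23.9, 22.1 and 21.7 CPM in wild type, -1.54 ± 0.17 (SE; edgeR adjusted p = 3.41e-09). The groups did not overlap at any day other than day 1, but the direction at day 10 was opposite to that at days 0, 2, 3 and 5. The change of the genotype difference from day 0 was 2.56 ± 0.25 (SE; edgeR adjusted p = 1.42e-09) at day 3 and -2.39 ± 0.25 (SE; edgeR adjusted p = 1.88e-09) at day 10.

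TIE1 (ENSG00000066056.13, GRCh38 chromosome 1, 43300993 to 43323108, plus strand), an orphan receptor that forms complexes with TEK, fell early in both genotypes, with day 1 over day 0 log2 fold changes of -1.08 ± 0.31 (SE; edgeR adjusted p = 0.00575) in PERK KO and -1.18 ± 0.31 (SE; edgeR adjusted p = 0.00226) in wild type, both of which lost their call with the transcript length offset (adjusted p = 0.33 and 0.42). Its day 0 levels were 7.72, 9.0 and 9.17 CPM in PERK KO and 7.7, 9.58 and 9.81 CPM in wild type, and by day 5 they were 0.230, 0.702 and 0.869 CPM in PERK KO and 0.950, 0.442 and 0.580 CPM in wild type. The groups overlapped at days 0, 1, 3 and 5 and none of these was called. At day 2 TIE1 was called lower in PERK KO, with 1.32, 1.29 and 1.41 CPM against 2.18, 2.17 and 3.84 CPM in wild type (-1.03 ± 0.35 SE, edgeR adjusted p = 0.019). That call was lost without wild-type day 2 replicate 3, the highest of the 6 (-0.69, adjusted p = 0.173), without both libraries that stood apart (-0.69, 0.159), without PERK KO replicate 1 (-1.02, 0.0525) or 2 (-1.0, 0.0519), and with a transcript length offset (-1.11, adjusted p = 0.142).

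Both genotypes gained TIE1 between days 5 and 10, with log2 fold changes of 2.22 ± 0.39 (SE; edgeR adjusted p = 2.48e-05) in PERK KO and 4.63 ± 0.38 (SE; edgeR adjusted p = 1.27e-11) in wild type. Day 10 libraries had 3.62, 1.81 and 3.15 CPM in PERK KO, against 12.2, 16.8 and 19.6 CPM in wild type, a log2 fold change of -2.5 ± 0.31 (SE; edgeR adjusted p = 4.4e-08). All PERK KO libraries lay below all wild-type libraries.

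The junction genes CDH5 and PECAM1 were close to absent until day 10. CDH5 (ENSG00000179776.18, GRCh38 chromosome 16, 66366622 to 66404786, plus strand), which encodes the adherens junction cadherin of endothelium, had at most 29 counts in any library before day 10. In PERK KO it had 0.556, 0 and 0.467 CPM at day 0, 0, 0.0611 and 0 CPM at day 1 and 0.603, 0.429 and 1.03 CPM at day 2. In wild type it had 0.593, 1.17 and 1.05 CPM at day 0, 0, 0 and 0.0533 CPM at day 1 and 1.0, 1.61 and 1.4 CPM at day 2. It was thus lost at day 1 and back at day 2 in both genotypes. None of the genotype differences at days 0 to 3 was called with all libraries. At day 0 the groups did not overlap, and CDH5 was called lower in PERK KO with the transcript length offset (-1.65, edgeR adjusted p = 0.0499) and with DESeq2 (-1.34, adjusted p = 0.0487). It was also called lower at day 2 with no filter on low counts (-0.95, edgeR adjusted p = 0.0471) and at day 3 without wild-type day 3 replicate 1 (-2.45, 0.0475). At day 5 CDH5 had 2, 0 and 1 counts in PERK KO libraries, against 9, 14 and 22 counts in wild type, and was called lower (edgeR adjusted p = 0.000204). As a ratio of summed counts it was 14.8-fold lower in PERK KO, with a 95% counting interval of 4.75 to 74.4.

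At day 10 CDH5 rose in both genotypes. PERK KO libraries had 8.07, 4.14 and 5.52 CPM, against 29.3, 37.8 and 38.3 CPM in wild type, -2.57 ± 0.34 (SE; edgeR adjusted p = 1.28e-07). No PERK KO library reached the wild-type range. The log2 fold change from day 5 was 6.6 ± 0.62 (SE; edgeR adjusted p = 3.79e-10) in PERK KO, where day 5 held 3 counts in all so that the value depends on the prior count, and 5.46 ± 0.42 (SE; edgeR adjusted p = 4.09e-12) in wild type.

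PECAM1 (ENSG00000261371.5, GRCh38 chromosome 17, 64319415 to 64413776, minus strand), the adhesion molecule CD31, had at most 14 counts in any library before day 10. No difference at days 0 to 5 was called with all libraries. The nearest was day 5, with 2, 7 and 3 counts in PERK KO and 7, 14 and 9 counts in wild type (edgeR adjusted p = 0.0506). It was called lower in PERK KO without the 2 libraries that stood apart (-1.27, adjusted p = 0.0421), without wild-type day 5 replicate 3 (-1.48, 0.0426), without PERK KO day 5 replicate 2 (-1.94, 0.019) and with DESeq2 (-1.31, 0.0401). Day 3 was called lower without wild-type day 3 replicate 3 (-1.76, edgeR adjusted p = 0.0185). At day 10 it reached 4.04, 2.64 and 2.72 CPM in PERK KO, against 13.5, 15.3 and 17.7 CPM in wild type, -2.31 ± 0.34 (SE; edgeR adjusted p = 5.65e-07). The groups were well apart in CPM, but with an offset for transcript length the difference was -1.04 and not called (adjusted p = 0.0634). RSEM assigned the PERK KO reads to shorter transcripts, of 2401, 1852 and 4799 nt on average, against 5672, 4779 and 6263 nt in wild type.

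VWF (ENSG00000110799.13, GRCh38 chromosome 12, 5948874 to 6124770, minus strand), the stored clotting protein, followed a course of its own and was the member that was higher in PERK KO at day 10. It was low at days 0 and 1 in both genotypes, between 0.586 and 2.11 CPM in every library. At day 2 it had risen in wild type, with 2.03, 2.41 and 2.4 CPM in PERK KO, against 34.1, 32.5 and 32.6 CPM in wild type, -3.85 ± 0.24 (SE; edgeR adjusted p = 4.45e-14). Wild-type libraries were tightly grouped and PERK KO libraries all far below them.

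The gap in VWF then closed and turned. At day 3 the values were 10.1, 7.5 and 7.96 CPM in PERK KO and 38.3, 59.7 and 55.4 CPM in wild type, -2.58 ± 0.22 (SE; edgeR adjusted p = 1.89e-11). At day 5 they overlapped, with 22.2, 23.8 and 17.9 CPM in PERK KO and 21.2, 23.9 and 15.7 CPM in wild type (0.07 ± 0.21 SE, edgeR adjusted p = 0.776). From day 3 to day 5 VWF rose in PERK KO (1.32 ± 0.21 SE, edgeR adjusted p = 5.56e-05) and fell in wild type (-1.33 ± 0.21 SE, edgeR adjusted p = 1.27e-05). At day 10 PERK KO libraries had 31.8, 26.6 and 30.6 CPM, against 2.11, 4.65 and 5.31 CPM in wild type, 2.9 ± 0.23 (SE; edgeR adjusted p = 3.3e-12). The step from day 5 to day 10 was 0.47 ± 0.21 (SE; edgeR adjusted p = 0.059) in PERK KO, not called, and -2.35 ± 0.23 (SE; edgeR adjusted p = 5.97e-10) in wild type. The VWF pseudogene VWFP1, which shares sequence with VWF exons, had 0 counts in all 36 libraries.

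Of the transcription factors, ETV2 (ENSG00000105672.14, GRCh38 chromosome 19, 35641745 to 35644871, plus strand), the ETS factor at the top of the lineage, was low everywhere. At days 0 and 1 no difference was called, and PERK KO had 0.988, 2.11 and 0.526 CPM at day 0, against 0.658, 0.907 and 0.841 CPM in wild type. At day 2 PERK KO had 0.823, 0.697 and 0.751 CPM, against 3.18, 2.84 and 4.0 CPM in wild type, -2.13 ± 0.34 (SE; edgeR adjusted p = 6.06e-06). Wild-type libraries had all risen above every PERK KO library, and the step from day 1 was 0.17 ± 0.39 (SE; edgeR adjusted p = 0.875) in PERK KO, not called, and 2.53 ± 0.35 (SE; edgeR adjusted p = 5.57e-07) in wild type.

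The ETV2 difference persisted. At day 3 PERK KO libraries had 0.471, 0.488 and 0.448 CPM, against 3.11, 3.16 and 3.98 CPM in wild type, -2.84 ± 0.36 (SE; edgeR adjusted p = 6.98e-08). At day 5 they had 0.862, 0.378 and 0.511 CPM, against 2.47, 2.6 and 3.08 CPM in wild type, -2.22 ± 0.36 (SE; edgeR adjusted p = 3.63e-06). At day 10 they had 0.524, 0.829 and 0.647 CPM, against 2.46, 1.89 and 4.47 CPM in wild type, -2.14 ± 0.34 (SE; edgeR adjusted p = 3.01e-06). Wild-type ETV2 had no called fall after its rise, with means of 3.34, 3.42, 2.72 and 2.94 CPM at days 2, 3, 5 and 10.

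ERG (ENSG00000157554.18, GRCh38 chromosome 21, 38380027 to 38661780, minus strand), the other ETS factor, was expressed in undifferentiated cells and then lost. At day 0 it had 2.28, 1.84 and 2.57 CPM in PERK KO and 2.17, 2.46 and 1.33 CPM in wild type, with overlapping groups. It fell at day 1 in both, with log2 fold changes of -4.13 ± 0.52 (SE; edgeR adjusted p = 1.95e-07) in PERK KO and -2.5 ± 0.44 (SE; edgeR adjusted p = 2.46e-05) in wild type. At day 2 it had risen in wild type, with 0, 4 and 3 counts in PERK KO libraries, against 101, 108 and 83 counts in wild type (-5.39 ± 0.49 SE, edgeR adjusted p = 1.96e-10). A day later the wild-type value was back at 0.315, 0.363 and 0.168 CPM, a step of -4.19 ± 0.43 (SE; edgeR adjusted p = 3.24e-09). The genotype difference at day 3 was not called with all libraries (edgeR adjusted p = 0.23). It was called lower in PERK KO without PERK KO day 3 replicate 2 (-2.32, 0.0229), on few counts.

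ERG was present again at day 10. PERK KO libraries had 1.68, 1.19 and 1.81 CPM, against 2.82, 2.77 and 3.19 CPM in wild type, -0.90 ± 0.36 (SE; edgeR adjusted p = 0.0275). The groups did not overlap, with all PERK KO libraries below, but the call was lost without wild-type replicate 3 (-0.83, adjusted p = 0.0784), without PERK KO replicate 2 (-0.74, adjusted p = 0.11) and with the transcript length offset (-0.72, adjusted p = 0.255).

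TAL1 (ENSG00000162367.11, GRCh38 chromosome 1, 47216290 to 47232220, minus strand), the bHLH factor that blood and endothelial progenitors share, appeared in PERK KO days before it did in wild type. At day 1 it had 13, 12 and 27 counts in PERK KO libraries and 0 counts in all 3 wild-type libraries, which makes it at least 19.3-fold higher, with 3 counts over the group as the floor (edgeR adjusted p = 2.4e-06). At day 2 PERK KO libraries had 19, 16 and 30 counts, against 0, 0 and 1 counts in wild type (adjusted p = 7.51e-07), a ratio of 61.6 with a counting interval of 10.7 to 2471. At day 3 they had 153, 165 and 158 counts, against 0, 1 and 0 counts in wild type (adjusted p = 6.81e-13), a ratio of 458 with an interval of 81.9 to 18143. All 3 PERK KO libraries lay above all wild-type libraries on each of these days. Their level was low at day 1 (0.733 to 1.18 CPM) and day 2 (0.858 to 1.41 CPM), and was 7.2 to 8.86 CPM at day 3.

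Wild type began to express TAL1 at day 5 and overtook PERK KO by day 10. At day 5 the levels were 5.57, 5.19 and 6.69 CPM in PERK KO and 0.886, 1.11 and 0.491 CPM in wild type, 2.83 ± 0.35 (SE; edgeR adjusted p = 4.83e-08). At day 10 they were 1.26, 0.518 and 0.948 CPM in PERK KO and 25.3, 19.1 and 34.9 CPM in wild type, -4.85 ± 0.34 (SE; edgeR adjusted p = 5.72e-13). No libraries overlapped on either day, and the direction was opposite. Between these days TAL1 fell in PERK KO, with a log2 fold change of -2.67 ± 0.34 (SE; edgeR adjusted p = 1.58e-07), and rose in wild type, with 5.01 ± 0.35 (SE; edgeR adjusted p = 1.33e-12). An antisense gene that overlaps TAL1, AL135960.1, was counted at up to 41.3 reads in a library; whether counting used strand is not stated in the sources used here, so some TAL1 reads could belong to it.

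LMO2 (ENSG00000135363.11, GRCh38 chromosome 11, 33858576 to 33892289, minus strand), the adaptor that links TAL1 to GATA factors, rose at day 10 in PERK KO and at days 1, 5 and 10 in wild type. A smaller rise in PERK KO from day 2 to day 3 (0.98 ± 0.33 SE, edgeR adjusted p = 0.0287) lost its call with the transcript length offset and without PERK KO day 2 replicate 1 or 2 or day 3 replicate 1 or 3 (adjusted p = 0.0654 to 0.112). At day 1 it had 0.961, 0.855 and 0.610 CPM in PERK KO, against 12.2, 9.75 and 9.11 CPM in wild type, -3.69 ± 0.29 (SE; edgeR adjusted p = 4.59e-11). At day 2 the values were 0.548, 0.536 and 0.892 CPM in PERK KO and 7.03, 8.63 and 10.9 CPM in wild type, -3.72 ± 0.29 (SE; edgeR adjusted p = 7.56e-12). All wild-type libraries were far above all PERK KO libraries, whose day 0 values had been 1.48, 1.1 and 1.46 CPM.

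At day 3 LMO2 had 1.37, 1.2 and 1.4 CPM in PERK KO and, after a fall, 1.89, 2.38 and 1.29 CPM in wild type. The groups overlapped, and the difference was not called (log2 fold change -0.50 ± 0.29 SE, edgeR adjusted p = 0.167). With the transcript length offset it was called lower in PERK KO (-0.85, edgeR adjusted p = 0.0351). The difference was called again at day 5, with 0.977, 1.03 and 0.511 CPM in PERK KO and 3.23, 3.54 and 4.91 CPM in wild type (-2.23 ± 0.29 SE, edgeR adjusted p = 1.37e-07). At day 10 both genotypes were at their highest, with 13.1, 18.4 and 11.3 CPM in PERK KO and 22.5, 21.2 and 28.3 CPM in wild type (-0.75 ± 0.22 SE, edgeR adjusted p = 0.0041). This was the smallest of the called differences at day 10, and the log2 fold change from day 5 was 4.09 ± 0.29 (SE; edgeR adjusted p = 5.46e-13) in PERK KO and 2.61 ± 0.24 (SE; edgeR adjusted p = 2.43e-10) in wild type.

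Tested from one sampled day to the next, the members moved at every step in both genotypes. In PERK KO 5 of 10 were called from day 0 to day 1 (43.1% of all genes tested), 4 from day 1 to day 2 (12.9%), 6 from day 2 to day 3 (24.7%), 2 from day 3 to day 5 (16.3%) and 8 from day 5 to day 10 (46.6%). In wild type the counts were 7 (44.6%), 6 (45.7%), 6 (32.6%), 5 (18.3%) and 8 (48.0%). The last step raised 5 members and lowered 3 in PERK KO (24.0% and 22.5% of all genes), and in wild type it raised 7 and lowered 1, VWF (24.1% and 23.9%). In PERK KO PECAM1, CDH5, TIE1, LMO2 and ERG rose and KDR, TEK and TAL1 fell. That rise of ERG lost its call with the transcript length offset (1.3, adjusted p = 0.114). Against day 0, the genotype difference of 3, 5, 5, 4 and 7 members had changed at days 1, 2, 3, 5 and 10 (23.1%, 35.7%, 38.9%, 50.1% and 55.7% of all genes). With the 5 genotype-by-day terms tested together, 10 of 10 members were called, against 80.9% of all genes. The adjusted p was 0.0483 for PECAM1 and 0.0467 for CDH5, and these calls were lost in 23 and 20 of the 36 fits that left out 1 library and with the transcript length offset (0.39 and 0.117). For the other members it was at most 8.32e-06.

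Levels of different genes can be compared only per transcript length, as TPM, which divides reads by transcript length and scales to library size. On that scale KDR was the highest member in PERK KO up to day 3, with 25, 5.16 and 25.6 TPM at day 0, and at day 5 TEK was above it (10.9, 10.2 and 12.3 TPM of TEK and 6.82, 6.88 and 7.75 TPM of KDR). In wild type KDR was the highest member at every day, with 20.6, 23 and 21 TPM at day 0 and 134, 84.4 and 90.3 TPM at day 10. In PERK KO at day 10 the highest was LMO2, with 20.8, 28.5 and 16.4 TPM, followed by VWF with 7.04, 7.0 and 8.49 TPM and KDR with 6.42, 2.53 and 5.9 TPM, and the VWF and KDR values did not overlap. Wild type at day 10 had 33.7, 27.1 and 36.8 TPM of LMO2 and 11.2, 11.9 and 11.7 TPM of CDH5. TAL1 (8.44, 5.76 and 9.72 TPM), TIE1 (8.08, 6.95 and 8.45 TPM) and TEK (7.82, 6.09 and 5.64 TPM) overlapped one another and lay below CDH5. VWF was the lowest member in wild type at 0.340, 0.640 and 0.700 TPM, and TAL1 the lowest in PERK KO at 0.430, 0.240 and 0.340 TPM.

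**Figure D3:**
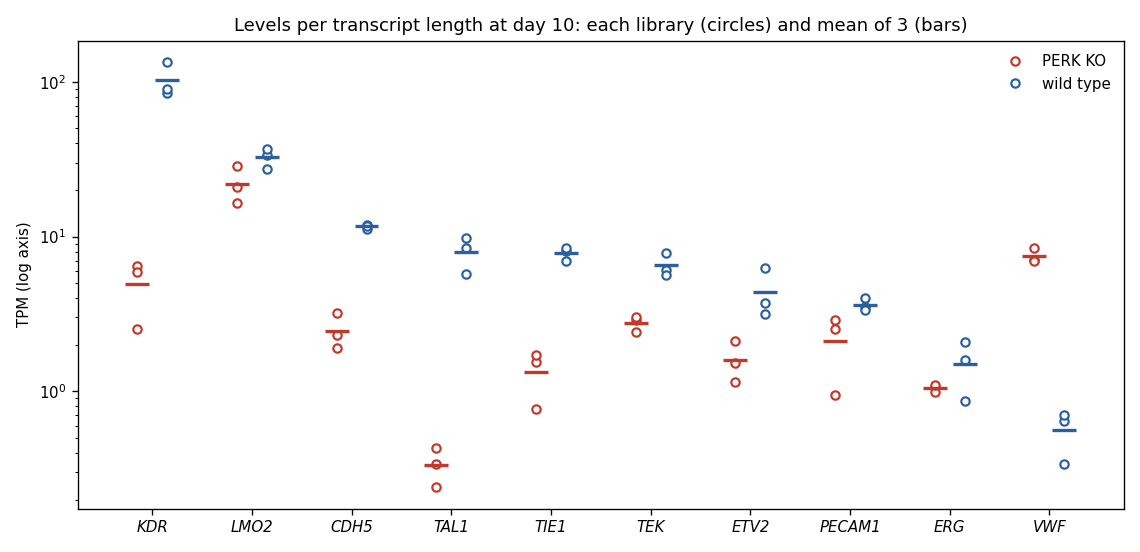
TPM of each member at day 10 on a log axis, PERK KO left of wild type; circles are single libraries and bars the means of 3. The order runs by the wild-type mean, KDR at 103 TPM first and VWF at 0.560 TPM last, and VWF, at 7.51 TPM, is the member with its PERK KO circles above those of wild type.

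RSEM also gives for each library a transcript length weighted by abundance, which shows which of a gene's annotated transcripts the reads were assigned to. For KDR and TEK it hardly varied, from 5791 to 6055 nt and from 4496 to 4760 nt over all libraries. For VWF the day 10 values were 7190, 6032 and 5940 nt in PERK KO libraries, against 8838, 8838 and 8838 nt in wild type. All wild-type reads at day 10, 47 to 95 counts in a library, were thus assigned to transcripts of 1 length, which some libraries of days 0 to 2 also had, while at days 2 and 3 the wild-type values were 6396, 7538 and 4933 nt and 6200, 5963 and 7863 nt. For LMO2 the PERK KO lengths lay between 1519 and 1687 nt at days 0 to 5, when no library had more than 29 counts, and were 1236, 1250 and 1349 nt at day 10, next to 1212, 1196 and 1153 nt in wild type. In the wild-type early rise of LMO2 at day 1 they were 1436, 1511 and 1293 nt. TAL1 at day 3 in PERK KO had lengths of 4671, 4057 and 1324 nt, so that its TPM of 2.09, 2.43 and 10.1 spread more widely than its CPM.

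**Figure D4:**
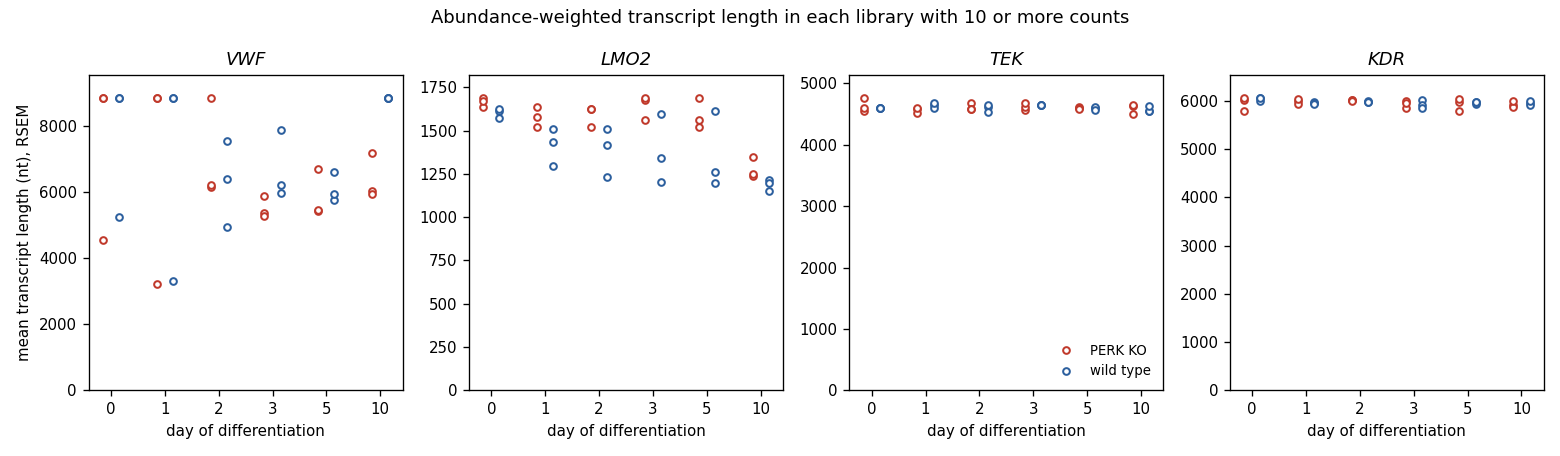
Abundance-weighted transcript length in nucleotides, from RSEM, for VWF, LMO2, TEK and KDR by day; circles are single libraries with 10 or more counts, PERK KO in red and wild type in blue. Wild-type VWF at day 10 sits at 8838 nt in all 3 libraries while PERK KO lies between 5940 and 7190 nt, and TEK and KDR stay level.

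Genes of the same biology outside the 10 members were read from lists, whose counts and medians are descriptions. Up to 4 called genes of each list were picked per day, so a day not named for a gene need not lack a call. Of all genes tested, 8.11%, 20.9%, 21.9%, 28.6% and 33.3% were called higher and 7.72%, 21.7%, 23.2%, 30.5% and 34.0% lower at days 1, 2, 3, 5 and 10, and the list counts are read against these shares. Among 11 tested genes of VEGF and angiopoietin signalling, 3 were higher and 7 lower in PERK KO at day 10, with a median log2 fold change of -2.21. The co-receptor NRP1 was lower from day 1 on. At day 3 it averaged 1.02 ± 0.197 CPM in PERK KO, against 86.6 ± 17.3 CPM in wild type (SD, n = 3 each), -6.41 ± 0.27 (SE; edgeR adjusted p = 1.95e-18). NRP2, the related co-receptor, averaged 70.2 ± 3.97 CPM in PERK KO and 1705 ± 16.5 CPM in wild type at day 5, -4.6 ± 0.29 (SE; edgeR adjusted p = 1.45e-14). VEGFA, the main ligand of KDR, averaged 252 ± 11.3 CPM in PERK KO and 1211 ± 194 CPM in wild type at day 10, -2.26 ± 0.12 (SE; edgeR adjusted p = 7.37e-16). PGF, the placental growth factor, was lower at day 3 (-4.35 ± 0.24 SE, edgeR adjusted p = 5.83e-16). FLT4, the receptor of lymphatic vessels, was higher at day 3, with 17.9 ± 1.27 CPM in PERK KO and 4.34 ± 0.233 CPM in wild type, 2.04 ± 0.18 (SE; edgeR adjusted p = 4.89e-11). ANGPT2, a ligand of TEK, was higher at day 2 (2.26 ± 0.47 SE, edgeR adjusted p = 0.000229). So was ANGPT1, another TEK ligand (3.43 ± 0.76 SE, edgeR adjusted p = 0.000519). Its level was low, with 1.44 ± 0.565 CPM in PERK KO and 0.129 ± 0.130 CPM in wild type.

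Of 16 other endothelial transcription factors, 0 were higher and 10 lower in PERK KO at day 2, 1 was higher and 13 lower at day 5, and 2 were higher and 12 lower at day 10 (median -2.68). FOXC1, a forkhead factor that acts in mesoderm and vessels, averaged 3.4 ± 0.541 CPM in PERK KO and 311 ± 15.1 CPM in wild type at day 2, -6.52 ± 0.28 (SE; edgeR adjusted p = 9.34e-18), and was higher in PERK KO at day 10, 3.36 ± 0.25 (SE; edgeR adjusted p = 5.23e-13). GATA2, which acts with TAL1 and LMO2, averaged 1.56 ± 0.251 CPM in PERK KO, against 136 ± 15.3 CPM in wild type, at day 5, -6.44 ± 0.32 (SE; edgeR adjusted p = 5.38e-17). MEF2C was lower at day 5 (-7.84 ± 0.50 SE, edgeR adjusted p = 2.33e-14) and is also a cardiac muscle factor. SOX17, a factor of arterial endothelium and endoderm, was lower at day 10 (-3.82 ± 0.28 SE, edgeR adjusted p = 1.17e-12). KLF2, which responds to blood flow, was lower too (-5.23 ± 0.35 SE, edgeR adjusted p = 5.44e-14).

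Of the endothelial surface, junction and secreted genes, 21 were tested. At day 1, 0 were higher and 1 lower in PERK KO, at day 5, 4 were higher and 10 lower, and at day 10, 1 was higher and 17 lower (median -2.49). S1PR1, the sphingosine-1-phosphate receptor, averaged 4.7 ± 1.37 CPM in PERK KO and 104 ± 16 CPM in wild type at day 10, -4.46 ± 0.27 (SE; edgeR adjusted p = 5.22e-15). MMRN2, a matrix protein of vessels, averaged 4.38 ± 0.761 CPM in PERK KO and 31.9 ± 7.03 CPM in wild type, -2.86 ± 0.19 (SE; edgeR adjusted p = 8.51e-14). The TGF-beta co-receptor ENG was lower at days 0, 1, 2 and 10, with -1.83 ± 0.23 (SE; edgeR adjusted p = 1.11e-07) at day 2. At day 3 CLDN5, the endothelial claudin, was higher in PERK KO at a low level, with 1.66 ± 0.258 CPM against 0.546 ± 0.163 CPM in wild type (1.6 ± 0.33 SE, edgeR adjusted p = 0.000185).

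Among 13 arterial and NOTCH genes, 4 were higher and 1 lower at day 1 (15.8% of all genes tested were called in either direction), 1 was higher and 9 lower at day 3 (45.1%), and 3 were higher and 6 lower at day 10 (67.3%). The day 10 count lay near the share of all genes. JAG1, a NOTCH ligand, was higher at day 1 (1.06 ± 0.15 SE, edgeR adjusted p = 2.99e-06) and lower at day 3 (-2.25 ± 0.15 SE, edgeR adjusted p = 7.77e-14). EFNB2, the arterial ephrin, was higher at days 1 and 2, again at day 10 (1.32 ± 0.17 SE, edgeR adjusted p = 9.13e-08), and lower at day 5 (-2.17 ± 0.18 SE, edgeR adjusted p = 9.19e-12). Of the NOTCH targets, HEY1 was lower at day 3 (-5.95 ± 0.43 SE, edgeR adjusted p = 3.91e-13) and HEY2 at day 10 (-3.03 ± 0.17 SE, edgeR adjusted p = 1.29e-15).

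Of 9 tested partners of TAL1 and LMO2, 0 were called at day 1 (15.8% of all genes tested), 2 were higher and 4 lower at day 3 (45.1%), and 2 were higher and 6 lower at day 10 (67.3%). LYL1, the closest relative of TAL1, was lower in PERK KO at days 2, 5 and 10. At day 2 it averaged 0.338 ± 0.159 CPM in PERK KO and 7.13 ± 1.23 CPM in wild type, -4.35 ± 0.43 (SE; edgeR adjusted p = 1.13e-09). CBFA2T3, a corepressor of TAL1 complexes, was higher in PERK KO at day 3 (2.32 ± 0.26 SE, edgeR adjusted p = 7.74e-09) and lower at day 10 (-1.78 ± 0.22 SE, edgeR adjusted p = 4.33e-08). LDB2, a LIM-domain binding protein, was higher at day 0 (0.79 ± 0.11 SE, edgeR adjusted p = 4.63e-06) and lower at day 10 (-2.03 ± 0.12 SE, edgeR adjusted p = 1.63e-15).

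Of 20 blood cell genes 12 were tested, and 1 was higher and 8 lower at day 3, 2 higher and 8 lower at day 5, and 3 higher and 8 lower at day 10. KLF1, the erythroid factor, was lower at day 5, with 0.520 ± 0.212 CPM in PERK KO and 30.4 ± 5.57 CPM in wild type (-5.84 ± 0.34 SE, edgeR adjusted p = 2.9e-15). LCP1, an actin-bundling protein of leukocytes, averaged 1.26 ± 0.0174 CPM in PERK KO and 79.4 ± 5.26 CPM in wild type at day 5 (-5.97 ± 0.23 SE, edgeR adjusted p = 2.33e-19). MYB, a progenitor factor, was higher in PERK KO at day 3, 8.2 ± 0.708 CPM against 0.670 ± 0.0516 CPM in wild type (3.59 ± 0.28 SE, edgeR adjusted p = 1.96e-12). All 10 mesoderm genes that act before the lineage were lower at day 2 and at day 3. APLNR, the apelin receptor of early mesoderm, is an example at day 2, with 57.3 ± 8.92 CPM in PERK KO and 4556 ± 791 CPM in wild type (-6.31 ± 0.24 SE, edgeR adjusted p = 7.57e-19). At day 10, 8 of the 10 were lower and 1 was higher.

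**Figure D5:**
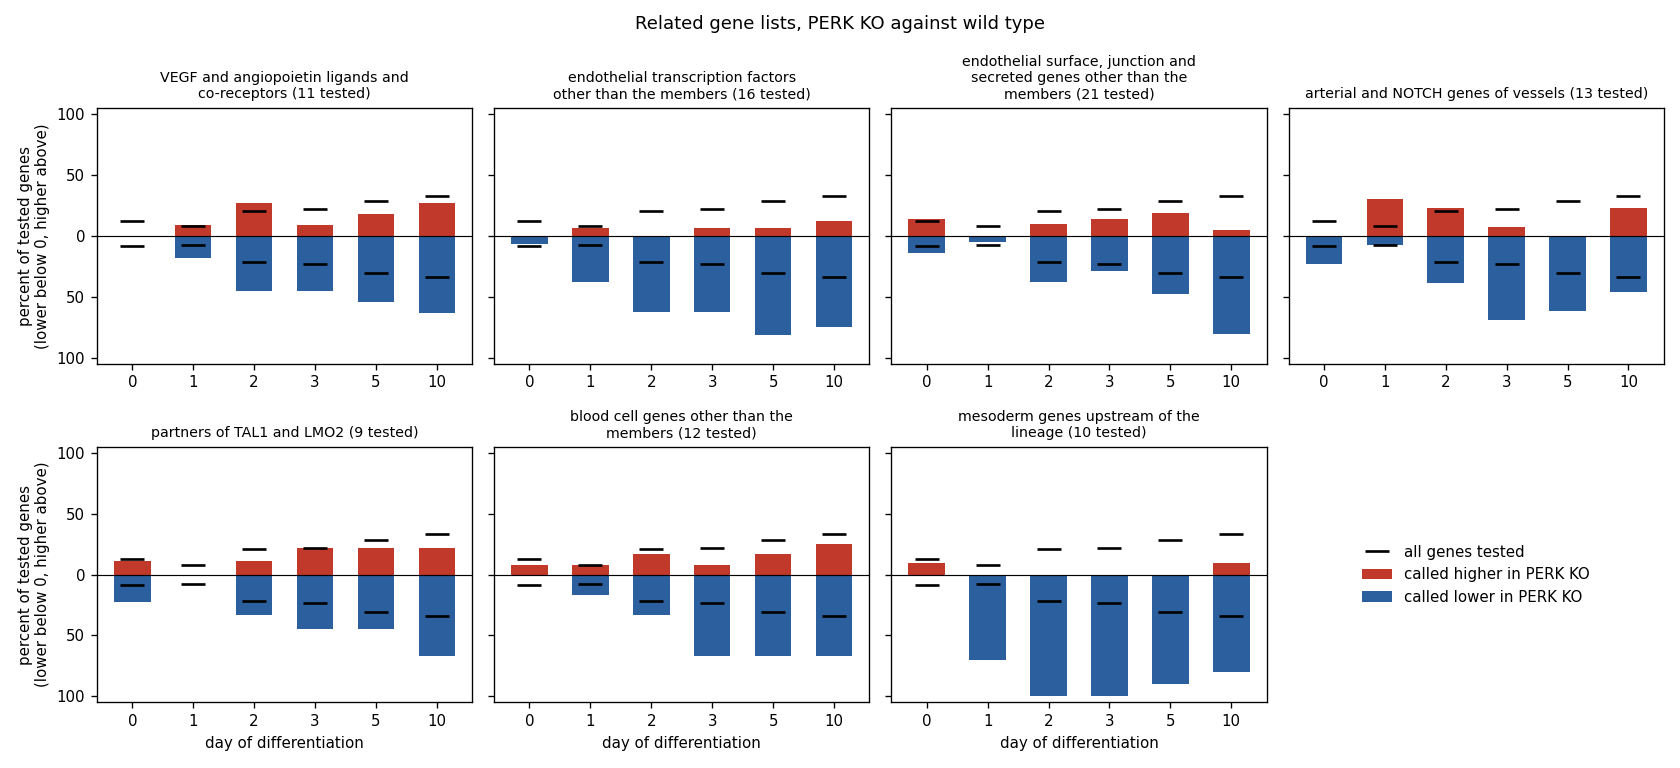
Percent of each related list's tested genes called higher (red, above 0) or lower (blue, below 0) in PERK KO than in wild type by day; black dashes are the shares of all genes tested. At day 10 the dashes stand at 33.3% higher and 34.0% lower, and 17 of 21 surface and junction genes and 12 of 16 transcription factors were lower.

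Markers of other cell types also differed between the genotypes. Of all genes tested, 20.9%, 21.9%, 28.6% and 33.3% were called higher in PERK KO at days 2, 3, 5 and 10. On the same days 21.7%, 23.2%, 30.5% and 34.0% were called lower. Markers of neural cells (5 of 5 called higher in PERK KO at days 3, 5 and 10) summed to 88.2 to 99.6 TPM in PERK KO libraries and 2.26 to 4.12 TPM in wild type at day 3, and to 399.7 to 502 TPM in PERK KO and 1.42 to 2.14 TPM in wild type at day 10, with SOX1 at 0 in wild type at days 3, 5 and 10. Pluripotency markers (6 of 6 higher in PERK KO at days 2, 3 and 5) summed to 5147 to 5390.0 TPM in PERK KO and 818 to 915 TPM in wild type at day 3. Cardiomyocyte markers (7 of 7 lower at days 5 and 10) summed to 85.6 to 337 TPM in PERK KO and 6542 to 7487 TPM in wild type at day 10. Fibroblast and epicardial markers (3 of 4 tested lower) summed to 36.8 to 56.4 TPM in PERK KO and 482 to 800.3 TPM in wild type at day 10. Smooth muscle and pericyte markers (1 of 5 higher and 4 lower) summed to 169 to 189 TPM in PERK KO and 385 to 418 TPM in wild type, and endoderm and liver markers (1 of 5 higher and 3 lower) to 545 to 927 TPM in PERK KO and 2868 to 3699.9 TPM in wild type. The part of these cells in the levels of TEK, TAL1, VWF and the other members was not tested.

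The blood markers PTPRC and HBZ were low. PTPRC, the pan-leukocyte gene CD45, had 1 count over the group at day 0 in PERK KO and at day 10 in wild type and 0 in every other group. The embryonic globin HBZ was at 0 in every PERK KO group and had at most 6 counts over a wild-type group. Blood markers summed to 0.600 to 2.08 TPM in PERK KO and 28 to 41.6 TPM in wild type at day 5, most of it KLF1 in wild type, and to 0.210 to 0.770 TPM in PERK KO and 3.07 to 5.81 TPM in wild type at day 10. Platelet markers summed to 11.8 to 13.9 TPM in PERK KO and 6.39 to 6.75 TPM in wild type at day 10, nearly all of it ITGA2B, while PPBP was at 0 in both. Set against the label, CDH5 and PECAM1 were present at day 10 in both genotypes, at the lower level in PERK KO. PTPRC and HBZ were at or near 0 in all groups. KLF1 was not, with 24.4 ± 7.19 CPM at day 3 and 30.4 ± 5.57 CPM at day 5 in wild type (SD, n = 3 each). Of 4 blood markers tested, 3 were called lower in PERK KO and 0 higher at each of these days. Among all genes tested, 23.2% and 30.5% were called lower.

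Across the 12 group means of log2 CPM the members are compared here as a description, with no test. PECAM1 and CDH5 were the closest pair (Pearson r = 0.88), then TEK and TAL1 (0.72) and PECAM1 and LMO2 (0.72), and TIE1 and VWF were the furthest apart (-0.62). The 12 means share their libraries, and all follow the same days. Among 14528 genes with at least 5 CPM in 1 group, those with the most similar course were ERGIC1, PGM1 and GMPR for KDR (r = 0.92 for each), MAPKAPK3, STXBP6 and USP46 for TEK (0.93, 0.91 and 0.87), and IL6R, GPAT3 and MAFF for TIE1 (0.92, 0.92 and 0.91). PECAM1 was closest to APOA2, DNAJB9 and AGT (0.98, 0.98 and 0.97), CDH5 to PPFIA4, AL691432.2 and F2RL2 (0.92, 0.92 and 0.91), and VWF to MN1, PLEKHB1 and SEMA6D (0.96, 0.95 and 0.93). For the transcription factors they were COPG1, KCNQ5 and ST8SIA1 for ETV2 (0.96 each), CTNND2, NAV2 and KIF13A for TAL1 (0.94, 0.92 and 0.91), SNX18, PDZK1 and RP9 for LMO2 (0.90, 0.90 and 0.88), and NGFR, TNFRSF10B and TRAC for ERG (0.90, 0.88 and 0.87). None of these genes is another member.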

How the data were processed

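mRNA libraries of the 36 samples were made with a VAHTS mRNA-seq V2 kit, per the labels' protocols. CASAVA, FastQC, STAR and RSEM and the builds GRCh38 and hg38 are named in the submitters' processing notes, without versions. The authors deposited RSEM expected counts per gene, as a matrix and per sample with identical values, and per the file headers the sample files also hold TPM values and abundance-weighted and effective transcript lengths, as RSEM computes them; the deposited replicates are not pooled. Gene IDs match GENCODE 29.

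From these, the expected counts (6.53% to 9.43% of all values fractional) were rounded and tested with edgeR 4.0.16 (R 4.3.3): filterByExpr, TMM scaling, 1 coefficient for each of the 12 groups, quasi-likelihood F tests with 24 residual degrees of freedom, and Benjamini-Hochberg adjustment over the 19772 genes tested. The biological coefficient of variation was 18.7%. The SE is the log2 fold change divided by the root of F. CPM are TMM-scaled, log2 CPM used a prior count of 2, and a group at 0 was set to a floor of 3 counts over the group; counting intervals are exact, at 95%, and cover counting error only. Transcript lengths are given where a library held 10 or more counts. The fit was tested on simulated data.

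The members and all lists were chosen with earlier results of these data known. Named genes are all members, up to 4 called genes of each list at each day with the smallest p and at least 1 CPM in 1 of both groups, and the 3 genes most like each member by correlation of group means. RLE scaling, no filter, sample files, DESeq2 1.42.0, a transcript length offset, a replicate block, only the 6 compared libraries, leaving out each library and leaving out the 2 that stood apart were tried. Promoters are from RefSeq.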

Additional observations from a re-analysis of the deposited data

Results flagged for a closer look

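The genotype difference (PERK KO over wild type, log2) at a later day was compared with that at day 0 in edgeR's interaction terms, and the members below differed at an adjusted p under 0.05. All values here are the later difference minus the day 0 difference, so a negative value means that PERK KO stood lower against wild type than it did at day 0.

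At day 1, 3 members differed (23.1% of all genes tested): TEK by -0.98, LMO2 by -3.78 and TAL1 by 7.58. At day 2, 5 members differed (35.7%): VWF by -3.64, ETV2 by -2.65, LMO2 by -3.80, ERG by -5.57 and TAL1 by 6.00. At day 3, 5 members differed (38.9%): KDR by -2.19, VWF by -2.37, ETV2 by -3.35, TEK by 2.56 and TAL1 by 8.87. At day 5, 4 members differed (50.1%): KDR by -3.66, ETV2 by -2.73, LMO2 by -2.31 and TEK by 1.85. At day 10, 7 members differed (55.7%): KDR by -4.55, PECAM1 by -3.52, TEK by -2.39, TIE1 by -2.43, ETV2 by -2.65, TAL1 by -4.35 and VWF by 3.11.

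TEK, TAL1 and VWF thus moved both ways: TEK stood higher against wild type at day 3 and lower at day 10 than at day 0, TAL1 higher at days 1, 2 and 3 and lower at day 10, and VWF lower at days 2 and 3 and higher at day 10. The TAL1 values depend on the prior count, since both genotypes held 3 or fewer TAL1 counts over the group at day 0. The day 10 calls of TAL1 and PECAM1 were lost without PERK KO day 0 replicate 1 (-1.39, adjusted p = 0.8, and -2.03, adjusted p = 0.415), and that of TAL1 also without wild-type day 0 replicate 1 (-3.79, adjusted p = 0.0569). The day 1 and day 2 calls of TAL1 were lost without wild-type day 0 replicate 3 (6.69, adjusted p = 0.0736, and 5.10, adjusted p = 0.123). With the transcript length offset the calls of TAL1 at days 1, 2 and 10, of ETV2 at days 5 and 10 and of PECAM1 at day 10 were lost.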

How the results depend on the processing

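The called directions of the members against wild type kept their sign under every alternative run, and the number of members called per day stayed within 1.5 times of the reported one except at day 0. There 1 member was called with all libraries, 2 with the transcript length offset and 2 with DESeq2 (CDH5 besides TEK), and 0 with only the 6 compared libraries. With only those libraries 304 of all genes were called at day 0 and 7355 at day 1, and without the 2 libraries that stood apart 4931 at day 1, against 4177 at day 0 and 3129 at day 1 in all libraries. From day 1 to day 2 in PERK KO 2 members were called with the length offset, against 4, and from day 3 to day 5 in PERK KO leaving out 1 library gave 1 to 3 members, against 2. The cause was not tested.

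Only differences that were never called changed sign. Without both libraries that stood apart these were KDR at days 0 and 2 (0.21 and -0.033) and ETV2 at day 0 (-0.085). With the length offset they were ETV2 at days 0 and 1 (-0.43 and -0.079), LMO2 and ERG at day 0 (-0.0028 and -0.55) and TIE1 at days 1 and 3 (-0.60 and -0.050). Over the fits that left out 1 library, the day 0 values ranged from -0.35 to 0.20 for KDR, -0.28 to 1.62 for PECAM1, -0.17 to 0.0091 for TIE1, -0.088 to 0.90 for ETV2, -0.17 to 0.29 for LMO2 and -0.044 to 0.36 for ERG. TIE1 ranged from -0.10 to 0.23 at day 1 and from -0.45 to 0.28 at day 5, KDR from -0.037 to 0.12 at day 2, and VWF from -0.082 to 0.21 at day 5.

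Leaving out 1 library gave 2958 to 4545 calls among all genes at day 0 and 2146 to 2446 at day 1. At days 2, 3, 5 and 10 it gave 6 to 7, 5 to 6, 6 to 7 and 9 to 10 members. The calls among all genes on those days were 6464 to 8540, 7948 to 8670, 10532 to 11006 and 12342 to 13112. Of single-member values, 99 lost and 12 gained a call over all alternatives, 21 and 2 of them with the length offset, while 2240 kept direction and call. The replicate numbers did not pair the libraries throughout (correlations of same-numbered libraries from -0.132 to 0.316). The highest were at day 3, for replicates 1 (0.316) and 3 (0.284), where the same-numbered wild-type library was also the best match. The replicate block changed 1 call, the joint interaction of CDH5 (edgeR adjusted p = 0.0508). Depth limits CDH5 and PECAM1 before day 10 and TAL1 in wild type before day 5, which rest on few counts. It also limits, among others, ERG at days 1, 3 and 5 and ERG in PERK KO at day 2. The same holds for ETV2 in PERK KO and for TAL1 in PERK KO at days 0 to 2.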
